A study of Mus musculus with 8 samples.

Results

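The genes described here are 10 mouse genes of cytokine receptors and of the JAK-STAT5 pathway, chosen by name out of the 20888 genes in the deposited table. They are the receptor chain genes Il7r, Il2rb, Il4ra, Il2rg, Ifngr1 and Ifngr2, the kinase genes Jak1 and Jak3, and the transcription factor genes Stat5a and Stat5b. All 10 were found by their symbol. The RNA came from blasts of mouse T-ALL (T cell acute lymphoblastic leukaemia), a cancer of T cell precursors, that had been sorted out of peripheral blood, and was measured by RNA-seq. According to its title, the series is about the histone demethylase KDM6B and oncogenic NOTCH1 stress. The control group holds 4 libraries from Vav-CRE:Control mice, with the genotype Kdm6b wild type. The other group holds 4 libraries from Vav-CRE:Kdm6b-KO mice, with the genotype Kdm6b homozygous mutant. Both groups carry Vav-CRE, a transgene that makes the Cre recombinase in blood-forming cells in general rather than in T cells alone. The labels used here name no strain, age or origin of the leukaemia, nor do they say that the 4 libraries of a group stem from 4 mice. The p-values therefore measure the spread among libraries, some of which may be technical.

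Cytokine receptors of this family have no enzyme of their own. Each chain holds a Janus kinase (JAK) on its inner side, and when a cytokine brings the chains together the kinases phosphorylate the receptor and the STAT factors that dock on it, which then enter the nucleus and switch on genes. Il7r, Il2rb and Il4ra encode chains that recognise particular cytokines (interleukin 7, interleukins 2 and 15, and interleukins 4 and 13), and each can pair with the common gamma chain encoded by Il2rg. JAK1 binds the cytokine-specific chains and JAK3 binds the common gamma chain. Interleukins 2, 7 and 15 signal mainly through STAT5A and STAT5B, which keep lymphoid precursors alive, and interleukin 4 mainly through STAT6. The interferon gamma receptor, made of the Ifngr1 and Ifngr2 products, works with JAK1 and JAK2. In the thymus, Il7r is on in the earliest precursors and is shut down as cells take up both CD4 and CD8, and activating IL7R, JAK and STAT5B mutations are known in human T-ALL.

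Values are CPM, read counts scaled by the authors to the same sum in every library, so CPM is a share of the reads of a library. Depth, estimated from the smallest steps between values, ran from 18262326 to 22069156 reads for controls and from 14016700 to 18242591 reads for the other group. The blasts carried T lineage transcripts at high levels: Cd3e, a chain of the T cell receptor complex, was at 1944 to 2532 CPM over the 8 libraries and Cd8b1 at 1204 to 2599 CPM. Summed markers ran, over the 8 libraries, from 820.4 to 1185.6 CPM for B cells, 116 to 312 CPM for monocytes and neutrophils, 60.4 to 1255 CPM for erythroid cells, 3.98 to 16.9 CPM for platelets and 732 to 1343 CPM for regulatory T cells, of which 636 to 1184 CPM were of Il2ra alone. Kdm6b itself was at 514 ± 135 CPM in controls and 587 ± 92.2 CPM in the other group (SD, n = 4 each; log2 change 0.22 ± 0.21 SE, limma adjusted p = 0.599). A gene-level value holds reads from outside any deleted part and does not check the labels, so the second group is called knockout-labelled and every direction rests on the labels. Xist was at 264 to 455 CPM in knockout-labelled libraries and at 0 to 0.831 CPM in the controls, and the Y-linked gene Ddx3y at 0.0714 to 0.548 CPM against 117 to 195 CPM. All 6 sex-linked genes tested were called, and sex cannot be told apart from the label. Limma called 488 of 13840 genes tested, 321 of them lower (65.8%), a share of 55.8% under quantile normalization.

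Promoter sequences are shown for 4 members: both chains of the interferon gamma receptor, which differed in their result below, Il2rg, whose groups did not overlap, and Il7r, whose promoter held the letters of a STAT site. They are RefSeq sequences of build GRCm38.p6 from 250 bases before to 50 bases after a RefSeq start, read 5′ to 3′ on the strand of the gene. A RefSeq start can differ from the GENCODE vM21 start behind the gene spans and exon lengths given below. The table had promoters for 9 of the 10 members, 11 in all, and none for Il2rb. Capitals mark matches to TTCNNNGAA (the palindrome that STAT5 binds), TTCNNNNGAA (the wider spacing that STAT6 prefers) or CCGGAA (a core of ETS factor sites), each searched on both strands. No matches overlapped.
Ifngr1, chr10:19591699-19591998, plus strand: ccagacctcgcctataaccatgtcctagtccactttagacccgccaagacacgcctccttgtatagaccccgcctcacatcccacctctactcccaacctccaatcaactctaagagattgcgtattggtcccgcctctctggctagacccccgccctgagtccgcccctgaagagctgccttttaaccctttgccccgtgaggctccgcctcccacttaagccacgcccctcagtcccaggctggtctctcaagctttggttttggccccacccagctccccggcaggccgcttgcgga
Ifngr2, chr16:91546809-91547108, plus strand: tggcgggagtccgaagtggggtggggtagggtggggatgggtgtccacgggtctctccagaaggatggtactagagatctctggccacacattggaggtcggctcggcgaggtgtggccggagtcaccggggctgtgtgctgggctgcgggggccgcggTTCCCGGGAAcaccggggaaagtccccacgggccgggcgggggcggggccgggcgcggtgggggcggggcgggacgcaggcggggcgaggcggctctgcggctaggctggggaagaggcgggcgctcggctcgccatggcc
Il2rg, chrX:101268206-101268505, minus strand: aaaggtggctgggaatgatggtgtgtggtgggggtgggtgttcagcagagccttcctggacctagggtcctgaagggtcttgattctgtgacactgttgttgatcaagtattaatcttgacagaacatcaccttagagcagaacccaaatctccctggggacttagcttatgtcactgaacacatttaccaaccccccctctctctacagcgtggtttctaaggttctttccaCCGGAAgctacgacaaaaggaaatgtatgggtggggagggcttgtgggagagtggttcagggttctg
Il7r, chr15:9529827-9530126, minus strand: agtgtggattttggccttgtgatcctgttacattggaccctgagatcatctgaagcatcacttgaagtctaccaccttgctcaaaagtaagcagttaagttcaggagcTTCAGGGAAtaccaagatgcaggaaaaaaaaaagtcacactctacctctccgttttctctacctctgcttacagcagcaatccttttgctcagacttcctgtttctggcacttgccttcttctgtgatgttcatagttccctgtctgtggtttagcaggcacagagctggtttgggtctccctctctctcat
TTCNNNGAA was found in 1 of the 11 member promoters, that of Il7r, with its first base at -142 from the start, and in 8.3% of 32851 promoters of this length. TTCNNNNGAA was found in 1, that of Ifngr2, at -91, and in 6.95% of all promoters. CCGGAA was found in 2, that of Il2rg at -17 and a promoter of Stat5b at -133, and in 14.9% of all promoters. The Il7r stretch lies wholly inside the GENCODE span of the gene (9505788 to 9530176). Its RefSeq start is thus downstream of the GENCODE start, and its match lies within the annotated gene. A match describes the letters and shows no binding.

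Per length of exon, the common gamma chain gene Il2rg was the most abundant member and Il7r, Jak3 and Il2rb the least. Levels per kilobase use merged GENCODE vM21 exons (mm10), and the authors may have used others. Il2rg was at 486 ± 91.6 CPM per kb (control SD, n = 4) and 638 ± 42.9 CPM per kb (knockout-labelled SD, n = 4). Ifngr1 came next at 208 ± 62.6 and 103 ± 20.0 CPM per kb, then Jak1 at 64.9 ± 11.6 and 70.6 ± 7.18. Stat5b (51.3 ± 11.4 and 46.5 ± 6.58 CPM per kb) and Il4ra (41.1 ± 17.5 and 43.1 ± 8.27) overlapped each other in range, as did Il4ra and Stat5a, and in the controls Jak1 and Stat5b. Stat5a was at 27.3 ± 3.29 and 30.9 ± 3.60 CPM per kb, and Ifngr2 at 12.5 ± 2.11 and 11.2 ± 0.784. The last 3 members were far lower: Il2rb at 3.42 ± 1.67 and 7.09 ± 4.77 CPM per kb, Jak3 at 1.35 ± 0.469 and 2.82 ± 1.01, and Il7r at 2.24 ± 2.55 and 0.691 ± 0.474. The ranges of these 3 overlapped in the controls, where their order is not set beyond the spread. In the knockout-labelled libraries Il2rb met Ifngr2 above it, through replicate 3, and Jak3 below it, while Jak3 and Il7r were separate.

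**Figure D1:**
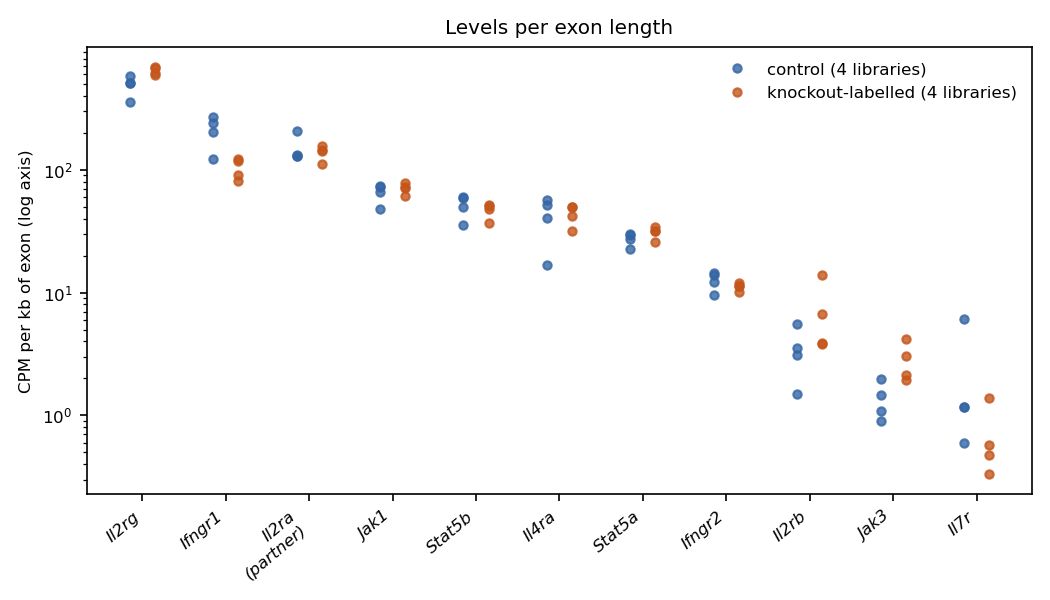
CPM per kb of exon (log axis) of the 10 members and of Il2ra, each point 1 library, blue for the 4 controls and orange for the 4 knockout-labelled libraries. Il2rg lies highest, with a control mean of 486 and a knockout-labelled mean of 638 CPM per kb, and Il2rb, Jak3 and Il7r lie lowest.

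The RNAs of the chains that share the common gamma chain were therefore present in very unequal amounts, and protein was not measured. Per length, Il2rg exceeded Il7r 59.0-fold to 2045-fold in the 8 libraries, Il2rb 44.2-fold to 338-fold, and Il4ra 9.06-fold to 21.3-fold. Il2ra, the alpha chain that turns the receptor for interleukin 2 into its high-affinity form, was abundant at 149.7 ± 38.5 and 139 ± 19.0 CPM per kb, and exceeded Il2rb 10.2-fold to 86.3-fold. Of the kinases, Jak1 exceeded Jak3 17.3-fold to 73.4-fold per length. Stat5b exceeded Stat5a 1.43-fold to 2.05-fold.

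Across the comparison of the groups, 1 of the 10 members was called, Ifngr1, and it fell. Called means a limma adjusted p below 0.05, with Benjamini-Hochberg adjustment over all 13840 genes that reached 1 CPM in 4 or more of 8 libraries. All 10 members passed that filter. The background share of called genes was 3.53% (2.32% lower and 1.21% higher), so 1 call among 10 genes is too few to set the members apart. The estimated change was above 0 for 6 members and below 0 for 4, with a median of 0.16 on the log2(CPM + 1) scale against -0.03 for all genes tested. The groups did not overlap for 1 member, Il2rg, against a background of 13.2% (5.23% higher and 7.97% lower). At an unadjusted p below 0.05 there were 3 members, Ifngr1, Jak3 and Il2rg, beside 19.3% of all genes.

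**Figure D2:**
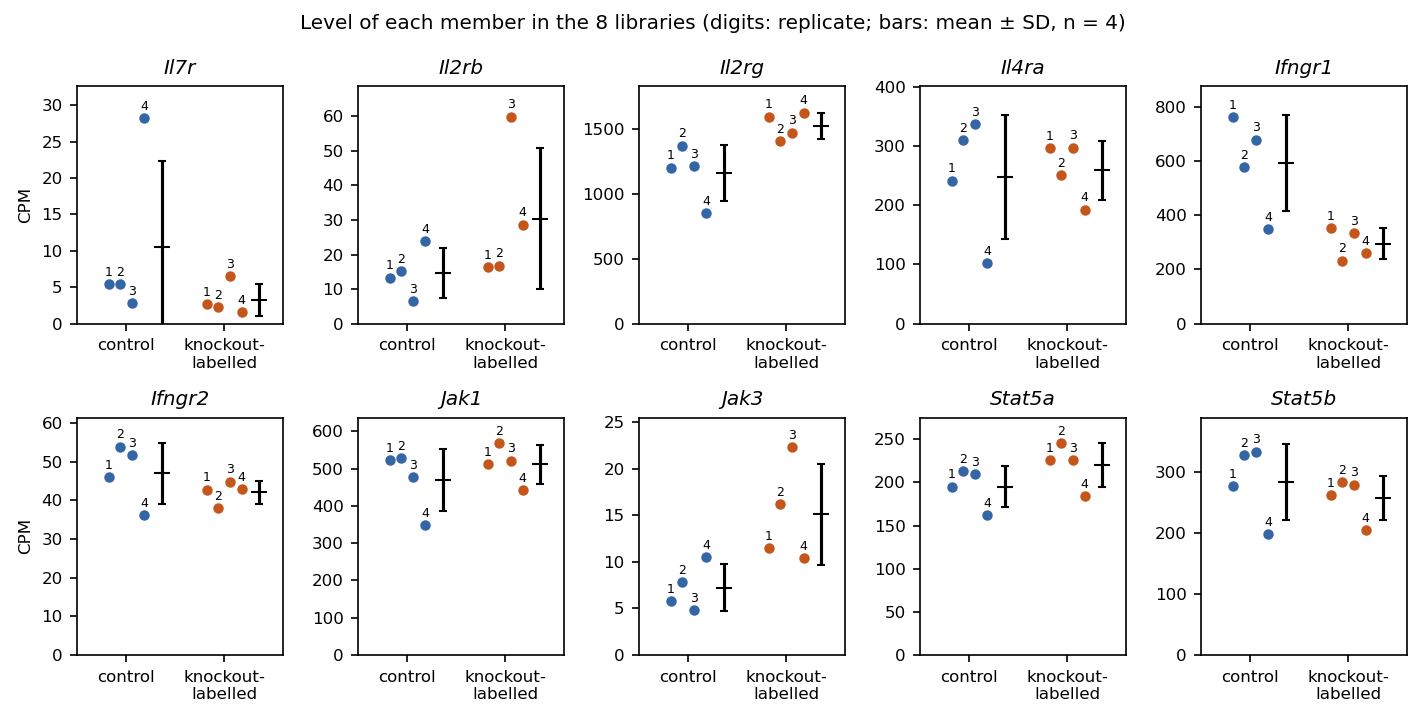
CPM (linear axes from 0) of each member in each library, with the replicate number beside each point, blue for controls and orange for knockout-labelled libraries; black bars are the mean ± SD of 4 libraries, cut off at 0 for Il7r. Control replicate 4 is the highest or the lowest control in all 10 panels, and only the Il2rg groups are fully separate.

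Ifngr1 encodes the chain of the interferon gamma receptor that binds the cytokine. In mm10 it spans bases 19591949 to 19610229 of chromosome 10. Its levels were 760.5, 578, 679 and 349 CPM in control replicates 1 to 4 and 351, 232, 333 and 259 CPM in knockout-labelled replicates 1 to 4. The first 3 controls lay well above every knockout-labelled library, and control replicate 4 lay just under the highest of them, so the groups overlapped narrowly. The log2 change was -0.97 ± 0.23 (SE, 95% interval -1.47 to -0.47, limma adjusted p = 0.0421), and the knockout-labelled mean was 0.496 times that of the controls. The authors' deposited table of 218 genes lists Ifngr1, the only member in it, with a signed fold of 2.01 for control over knockout. The call was close to its threshold: leaving out any 1 of control replicates 1, 2 and 3 or of the 4 knockout-labelled libraries ended it, at an adjusted p from 0.0626 to 0.138, while without control replicate 4 the log2 change was -1.20 and the adjusted p 0.00242.

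Ifngr2 encodes the partner chain, which carries JAK2 into the receptor. Its levels were 46.0, 53.9, 51.8 and 36.2 CPM in controls and 42.8, 38.0, 44.9 and 42.9 CPM in knockout-labelled libraries, all of which lay inside the control range. The log2 change was -0.14 ± 0.15 (95% interval -0.46 to 0.18, limma adjusted p = 0.644), an interval that leaves out a change as large as the estimate for Ifngr1. The ratio of Ifngr1 to Ifngr2 per length is taken within a library and does not depend on its scaling. It was 21.9, 14.2, 17.3 and 12.8 in the controls and 10.8, 8.10, 9.82 and 7.98 in the knockout-labelled libraries, with every control above every knockout-labelled library. This ratio was chosen after the values were seen and was not tested.

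Of 16 tested genes known to respond to interferon gamma, 1 rose, 0 fell and 15 were not called by limma. The background was 3.53% of all genes called, 1.21% higher and 2.32% lower. At an unadjusted p below 0.05 there were 5 of the 16, beside 19.3% of all genes. The median log2 change of the 16 was 0.13, against -0.03 for all genes tested. The gene that rose was Gbp2, of a family of guanylate-binding proteins, at 46.7 ± 5.23 CPM in controls and 82.5 ± 26.3 in the knockout-labelled libraries (log2 change 0.77 ± 0.19, limma adjusted p = 0.0483), a call lost without any single library but control replicate 4 (adjusted p up to 0.143), and lost under pseudocounts of 0.1 and 5, with no filter and with no mean-variance trend (0.0503 to 0.0816). Gbp2 shares exon bases with Mir6381 on the opposite strand. Ifng itself, the gene of the ligand, was at 0 to 0.274 CPM in controls and at 0.247, 0, 3.44 and 0.564 CPM in knockout-labelled replicates 1 to 4, so replicate 3 stood alone.

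Il2rg, on the X chromosome from 101264378 to 101268255, encodes the common gamma chain. Its levels were 1202, 1371, 1213 and 853 CPM in controls and 1593, 1406, 1472 and 1624 CPM in knockout-labelled libraries. Every knockout-labelled library lay above every control, narrowly so for replicate 2 of both groups. The log2 change of 0.41 ± 0.16 (95% interval 0.06 to 0.76) did not pass over all genes (limma unadjusted p = 0.0247, adjusted p = 0.188), and it was 0.27 without control replicate 4, the lowest control. Xist was present in all 4 knockout-labelled libraries and near 0 in all 4 controls, and the part of sex in this X-linked gene cannot be told apart from that of the label.

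Il7r, on chromosome 15 from 9505788 to 9530176, encodes the alpha chain of the receptor for interleukin 7. It was the least abundant member per length in the knockout-labelled libraries. Its levels were 5.42, 5.41, 2.77 and 28.2 CPM in controls and 2.65, 2.21, 6.47 and 1.55 CPM in knockout-labelled libraries, the lowest of which rests on about 22 reads. Control replicate 4 was far above the other 7 libraries, which shared a low range. The log2 change of -1.09 ± 0.55 (95% interval -2.29 to 0.12) was not called (limma adjusted p = 0.305). Without control replicate 4 the control mean went from 10.5 to 4.53 CPM and the log2 change to -0.48, and without knockout-labelled replicate 3 the knockout-labelled mean went from 3.22 to 2.14 CPM.

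Il2rb encodes the chain shared by the receptors for interleukins 2 and 15 and lies on chromosome 15 from 78479256 to 78495271. Its levels were 13.3, 15.1, 6.44 and 23.9 CPM in controls and 16.4, 16.8, 59.9 and 28.6 CPM in knockout-labelled libraries. Knockout-labelled replicate 3 was the highest library by far, and replicates 1 and 2 lay within the control range. The log2 change was 0.93 ± 0.42 (95% interval -0.0012 to 1.86, limma adjusted p = 0.259), and 0.54 without knockout-labelled replicate 3. Il2rb is also strongly expressed in NK cells. Knockout-labelled replicate 3 was also the highest of the 8 libraries for 8 of 13 markers of NK and cytotoxic cells. The summed level of these markers was 158 to 411 CPM in controls and 185, 228, 450.1 and 242 CPM in knockout-labelled replicates 1 to 4. The order was not that of Il2rb throughout. Knockout-labelled replicate 4, at 28.6 CPM of Il2rb, had a lower sum than control replicate 2 (277 CPM), at 15.1 CPM of Il2rb. In control replicate 4, 268 of the 411 CPM were of 1 gene, Gzma. Ncr1, which defines NK cells, was at 0.821, 2.08, 0.994 and 1.09 CPM in controls and at 0.555, 0, 3.73 and 0.282 CPM in knockout-labelled libraries, and none of the 13 markers was under 3 reads in all libraries. Their part in the Il2rb values was not tested, and in bulk samples a different number of cells of a type and a different amount of RNA per cell cannot be told apart.

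Il4ra, on chromosome 7 from 125552120 to 125579474, encodes the chain that binds interleukin 4. Its levels were 241, 309, 337 and 102 CPM in controls and 296, 250.1, 297 and 192 CPM in knockout-labelled libraries. Control replicate 4 was the lowest of the 8 and the other 3 controls spanned the knockout-labelled values above 192 CPM. The log2 change was 0.18 ± 0.32 (95% interval -0.52 to 0.88, limma adjusted p = 0.804), and its sign turned without control replicate 4 (-0.20).

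**Figure D3:**
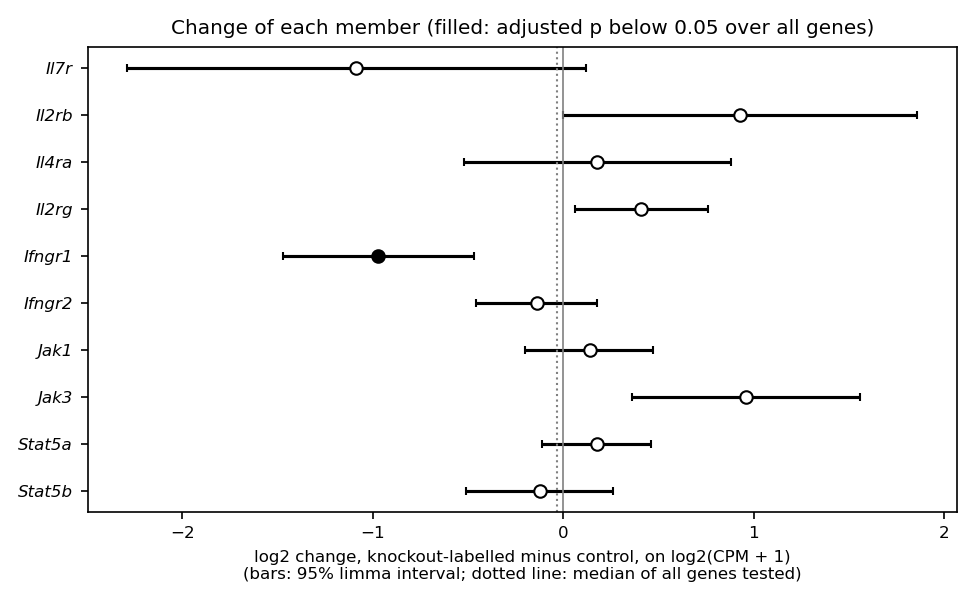
Log2 change of each member on the log2(CPM + 1) scale, knockout-labelled minus control, with 95% limma intervals; filled points were called, the dotted line is the median of all 13840 genes (-0.03). Ifngr1 at -0.97 is the only filled point, and the intervals of Jak3 (0.36 to 1.56) and Il2rg (0.06 to 0.76) also lie to one side of 0.

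Neither kinase gene was called. Jak3, on chromosome 8 from 71676296 to 71690575, was at 5.79, 7.84, 4.82 and 10.5 CPM in controls and at 11.5, 16.2, 22.3 and 10.4 CPM in knockout-labelled libraries. The groups met only at control replicate 4 and knockout-labelled replicate 4. The log2 change was 0.96 ± 0.27 (95% interval 0.36 to 1.56), with a limma unadjusted p of 0.00483 and an adjusted p of 0.0839, so it was not called. It was called without control replicate 4 (adjusted p = 0.0341) and with array weights, which count that library least (adjusted p = 0.00670, with 2 members called beside 9.49% of all genes), and it reached an adjusted p of 0.205 without knockout-labelled replicate 2. Knockout-labelled replicate 3, the highest for Jak3, was also the highest for Il2rb and for 8 of the 13 NK and cytotoxic markers, and their part was not tested. Insl3, which shares exon bases with Jak3 on the same strand, was at 0 to 1.37 CPM.

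Jak1, on chromosome 4 from 101152367 to 101265282, was at 523, 528, 477 and 348 CPM in controls and at 512, 568, 521 and 442 CPM in knockout-labelled libraries. All but control replicate 4 lay between 442 and 568 CPM. The log2 change was 0.14 ± 0.15 (95% interval -0.20 to 0.47, limma adjusted p = 0.674) and -0.0012 without control replicate 4. The ratio of Jak3 to Jak1 per length was 0.0150, 0.0200, 0.0136 and 0.0407 in the controls and 0.0304, 0.0384, 0.0578 and 0.0319 in the knockout-labelled libraries, and control replicate 4 alone lay among the latter.

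Stat5a and Stat5b are neighbours on chromosome 11, from 100859351 to 100885169 and from 100780731 to 100850724. Stat5a was at 195, 213, 209.6 and 162 CPM in controls and at 226, 245, 226 and 184 CPM in knockout-labelled libraries (log2 change 0.18 ± 0.13, 95% interval -0.11 to 0.46, limma adjusted p = 0.500). Stat5b was at 277, 328, 334 and 198 CPM in controls and at 262, 284, 279.9 and 205 CPM in knockout-labelled libraries (log2 change -0.12 ± 0.18, 95% interval -0.51 to 0.26, limma adjusted p = 0.754). Both pairs of groups overlapped, and both intervals leave out a doubling and a halving. The ratio of Stat5a to Stat5b per length was 0.548, 0.504, 0.487 and 0.635 in the controls and 0.668, 0.670, 0.628 and 0.698 in the knockout-labelled libraries, so the groups met only at control replicate 4 and knockout-labelled replicate 3. The genes share sequence: 8.21% of the 50-base stretches in Stat5a transcripts also occur in Stat5b, and 11% the other way, so the reads from these stretches may be split in a way that depends on the authors' counting. Stat5a also shares exon bases with Stat3 on the opposite strand (215 to 218 CPM in the group means), Jak1 with Raver2 (5.98 and 6.78 CPM) and Il4ra with Gm44876 (0.0802 and 0.428 CPM). Il2rg shares exon bases with Gm20489 on its own strand, a gene not analysed here. No strand setting is stated, and reads of genes on opposite strands cannot be told apart.

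**Figure D4:**
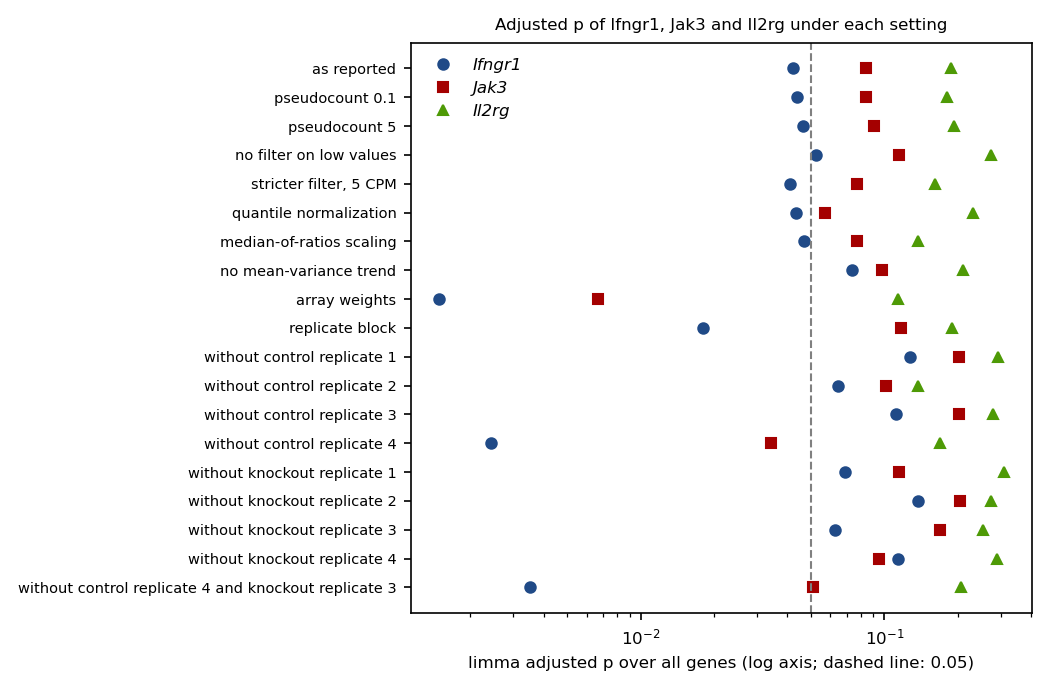
Limma adjusted p over all genes (log axis) of Ifngr1, Jak3 and Il2rg as reported and under each of the other settings, with the threshold of 0.05 as a dashed line. Ifngr1 lies below the line as reported (0.0421) and above it with no filter, with no trend and without any single library but control replicate 4, Jak3 lies below it with array weights and without control replicate 4, and Il2rg lies above it throughout.

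Control replicate 4 was the highest control for Il7r, Il2rb and Jak3 and the lowest control for the other 7 members, so it was at an extreme for all 10, against 75.4% of all genes tested. Knockout-labelled replicate 4 was the lowest of its group for 6 members and the highest for 1, against 64.5% of genes at either extreme, and knockout-labelled replicate 3 was the highest for 5, against 25.2% of genes. Control replicate 4 also had the lowest level of the 8 libraries in 11 of 16 T cell and T-ALL markers, whose summed level was 21082, 22049, 23980 and 16091 CPM in control replicates 1 to 4 and 19566 to 23426 CPM in knockout-labelled libraries. Rag1, a recombinase gene of immature lymphocytes, was at 421 CPM there against 1163 to 1524 CPM in the other controls, and Il2ra was at 1184 CPM against 740 to 751 CPM. The part of these differences in the member values was not tested. Without control replicate 4, limma called 2 members, Ifngr1 and Jak3, and 4.84% of all genes.

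The ligands of these receptors were barely detected in the blasts. Of 9 ligand genes, 7 were in the table and 1 passed the filter, Tslp, the gene of a cytokine that signals through the Il7r product and another chain, at 1.06 ± 0.322 and 1.91 ± 0.769 CPM (limma adjusted p = 0.309). Il7 was under 3 reads in 7 of the 8 libraries and Il2 in 4. The floor of 3 reads was 0.136 to 0.214 CPM, and it covers counting error only.

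Among 20 other receptor chain genes tested, 1 fell, 0 rose and 19 were not called, beside 2.32% of all genes called lower. Estimates were below 0 for 15 of the 20 and for 7578 of all 13840 genes tested. The median log2 change was -0.35 against -0.03 for all genes. The gene that fell was Il12rb2, which encodes a chain of the interleukin 12 receptor. It shares exon bases with Serbp1 on the opposite strand, whose reads cannot be told apart from it. Il12rb2 levels were 71.6 ± 26.0 and 23.5 ± 9.15 CPM with no overlap (log2 change -1.56 ± 0.28, limma adjusted p = 0.0166), and the authors' deposited table gives it a signed fold of 3.05 for control over knockout. Leaving out control replicate 1, or knockout-labelled replicate 1, 2 or 4, ended the call, at an adjusted p of up to 0.0695. Named after their values were seen, the genes of both type I interferon receptor chains did not pass: Ifnar1 was at 81.7 ± 12.2 and 57.9 ± 9.95 CPM (limma adjusted p = 0.115) and Ifnar2 at 39.6 ± 3.86 and 29.0 ± 4.67 CPM (adjusted p = 0.136), each with no overlap, as in 7.97% of all genes in that direction. Ifnar1 was called with array weights and without control replicate 4. Il2ra was at 855 ± 219.8 and 792 ± 109 CPM (limma adjusted p = 0.825). Of 7 other JAK and STAT genes 0 were called by limma, beside 3.53% of all genes. An unadjusted p below 0.05 was reached by 2 of the 7, beside 19.3% of all genes. Among them was Stat4, at 33.2 ± 4.31 and 20.1 ± 8.56 CPM (limma adjusted p = 0.147).

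**Figure D5:**
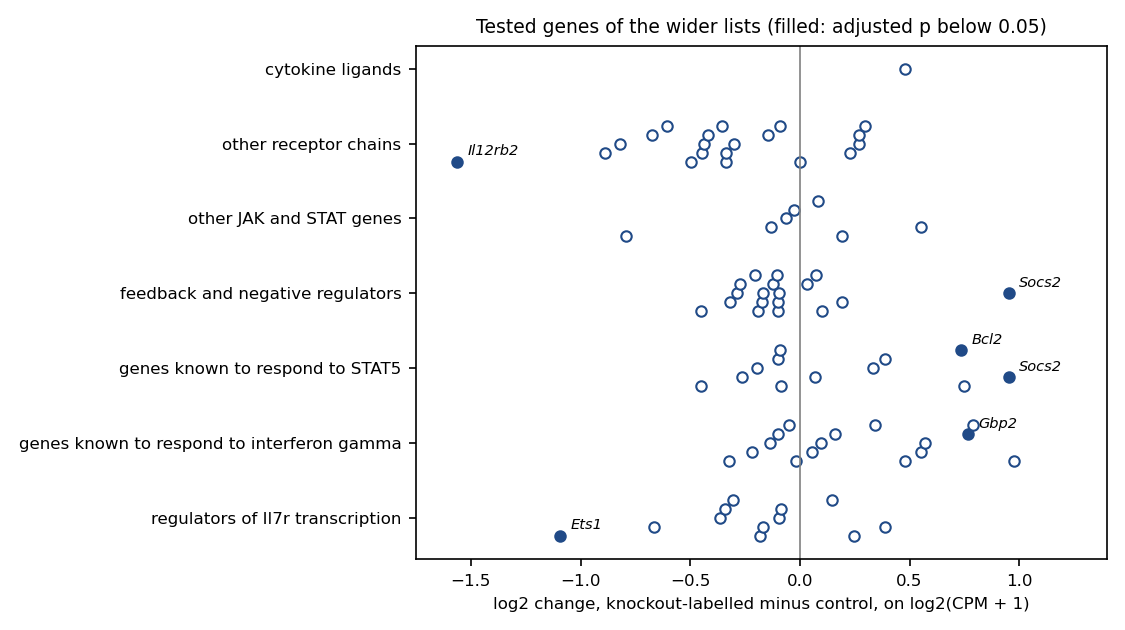
Log2 change of each tested gene of the wider lists on the log2(CPM + 1) scale, knockout-labelled minus control, 1 point a gene, with genes in more than 1 list drawn in each; filled points were called. The filled points are Il12rb2 at -1.56 and Ets1 at -1.09 on the left and Bcl2 at 0.74, Gbp2 at 0.77 and Socs2 at 0.95 on the right.

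Of 12 tested genes known to respond to STAT5, 2 rose, 0 fell and 10 were not called, with 6 estimates above 0, 6 below and a median log2 change of -0.01. Bcl2, which blocks cell death, rose, with means of 41.0 ± 3.84 and 69.0 ± 7.53 CPM (log2 change 0.74 ± 0.13, limma adjusted p = 0.0149). Socs2, a feedback inhibitor of cytokine signalling, rose, with means of 0.267 ± 0.131 and 1.44 ± 0.146 CPM (log2 change 0.95 ± 0.20, limma adjusted p = 0.0281), both low levels. Its log2 change was 2.15 with a pseudocount of 0.1 and 0.29 with a pseudocount of 5. The groups did not overlap for these genes or for Pim2, an X-linked survival kinase gene at 18.3 ± 1.68 and 24.3 ± 2.36 CPM (limma adjusted p = 0.167). That is 3 of 12 with no overlap, all higher, beside 13.2% of all genes in either direction (5.23% higher). Called were 2 of 12, both higher, beside 3.53% in either direction (1.21% higher). The list was chosen with earlier results of these data known, and for Pim2 sex cannot be told apart from the label. Socs3, another of the 12, had a lower mean, at 120.0 ± 24.3 and 87.2 ± 16.4 CPM, and was not called (limma adjusted p = 0.188). Bcl2 shares exon bases with D630008O14Rik on the opposite strand, whose reads cannot be told apart from it. Cish, another feedback gene switched on by STAT5, was at 0 to 1.18 and 0.143 to 1.53 CPM and did not pass the filter, and the survival kinase gene Pim1 was at 255 ± 67.4 and 263 ± 35.9 CPM. Leaving out control replicate 1, or knockout-labelled replicate 2, ended the call of Bcl2 (adjusted p up to 0.0654), and leaving out control replicate 1, control replicate 3 or any knockout-labelled library ended that of Socs2 (up to 0.0946).

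Of 18 feedback and negative regulators tested, 1 rose, Socs2 again, and 17 were not called, beside 1.21% of all genes called higher. Their median log2 change was -0.11, against -0.03 for all genes tested. Of 12 regulators of Il7r transcription, 1 fell, 0 rose and 11 were not called, beside 2.32% of all genes called lower. Their median was -0.17. The one that fell was Ets1, which encodes the ETS factor of that name, with means of 2130 ± 403 and 996 ± 177 CPM (log2 change -1.09 ± 0.19, limma adjusted p = 0.0145), a call lost without control replicate 1 (adjusted p = 0.0590). Foxo1, which activates Il7r in T cells, was at 135 ± 30.1 and 174 ± 27.1 CPM (limma adjusted p = 0.252). Over all wider lists, each gene counted once and members left out, limma called 5 of 80 genes, 3 higher and 2 lower, beside the background of 3.53%. The count was 0 without control replicate 1 (19 at an unadjusted p below 0.05), 3 without control replicate 3 and 8 without control replicate 4. It was 2, 1, 3 and 3 without knockout-labelled replicates 1, 2, 3 and 4.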

How the data were processed

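RNA-seq was measured in 8 libraries, 4 per group, grouped by their titles. Per the labels' protocols, the NucleoSpin RNA XS and SMARTer Ultra Low kits were used. STAR (version 2.7.3a), Partek (version 10.0.22.0524) and build mm10 are named in the submitters' processing notes. The counter, strand setting and annotation: not given in the sources used here. Deposited by the authors were CPM values with 0.0001 added, which was subtracted here, and a list of 218 genes with a signed fold whose model is not stated (a linear fold ratio, copied as the authors' value). Depth was read from the step between low CPM values. Between 70.5% and 73.2% of values under 200 reads were whole within 0.02 reads, so the reads could not be recovered and count models were not used.

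Genes reaching 1 CPM in 4 or more of 8 libraries were tested with limma (version 3.58.1, R 4.3.3) on log2(CPM + 1), with a mean-variance trend, two-sided, Benjamini-Hochberg over 13840 genes; this scale understates changes of low genes. The test was checked on simulated data. Named were all members, Kdm6b, Xist and Ddx3y, from each pathway list up to 4 called genes with the lowest p (or the 1 with the lowest p), and from each marker list the 2 most abundant genes; some named items are not reported here, and others are named for context, chosen after their values were seen. Members and lists were chosen with earlier results of these data known. Replicate numbers were not taken to pair libraries. Alternatives changed the pseudocount, filter, scaling, trend, weights, block and libraries.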

Additional observations from a re-analysis of the deposited data

Results flagged for a closer look

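In 20 groups of 4 libraries examined for the members, 1 library stood apart from the other 3 of its group by a gap over Dixon's 95% critical value: control replicate 4 for Il7r, at 28.2 CPM. Over all named genes, 10 of 68 groups had such a library, and chance gives about 5% of groups. Control replicate 4 was that library for Il2ra (1184 CPM), Gzma (268 CPM), a granzyme gene of cytotoxic cells, and the integrin gene Itgb3 (7.39 CPM), high in each. Knockout-labelled replicate 3 was that library for Gbp2 (122 CPM), Itgb3 (13.4 CPM) and Ddx3y (0.548 CPM). Knockout-labelled replicate 4 stood apart in the globin genes Hba-a2 (316 CPM) and Hbb-bs (288 CPM), and control replicate 2 in Prf1 (88.7 CPM), the gene of the pore protein of cytotoxic cells.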

How the results depend on the processing

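Among members, Ifngr1 kept its direction under all 18 alternatives (log2 change -1.27 to -0.83) and its call under 9. It lost the call with no filter on low values (adjusted p = 0.0523) and with no mean-variance trend (0.0734), so limma called 0 members there, with 4 and 3 at an unadjusted p below 0.05. The members called numbered 2 with array weights and 0 to 2 with 1 library left out, the 0 beside 2 to 4 members at an unadjusted p below 0.05. Array weights gave 1313 called genes and 11 in the wider lists. With 1 library left out, called genes numbered 81 to 670 and those of the wider lists 0 to 8. The cause was not tested. Signs turned for values that were not called: Il4ra with array weights (-0.04) and over single libraries left out (-0.20 to 0.37), Jak1 (-0.0012 to 0.20), Lck (-0.0021 to 0.11), Cd74 (-0.45 to 0.28), Lyz2 (-0.70 to 0.02), Hba-a2 (-0.45 to 1.05), Hbb-bs (-0.57 to 0.85), Itgb3 (-0.13 to 0.67) and Il2ra (-0.15 to 0.08). Signs also turned for Lck under quantile normalization (-0.06) and array weights (-0.03), and with array weights for Hbb-bs (-0.18) and Il2ra (0.11). Without both control replicate 4 and knockout-labelled replicate 3, an alternative chosen after seeing the data, values were -0.27 for Il4ra, -0.01 for Jak1, -0.02 for Kdm6b (0.01 to 0.34 over single libraries left out), -0.72 for Lyz2 and 0.06 for Il2ra, and limma called 656 genes, 1 member and 5 of the wider lists.

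Whether the replicate numbers pair the libraries is not settled. Deviations of same-numbered libraries correlated at 0.15, 0.07, -0.10 and 0.18, and those of differently numbered libraries at -0.26 to 0.35. So few correlations of this size can neither show nor exclude pairing. With the replicate block limma called 509 genes, Ifngr1 among the members (adjusted p = 0.0180) and 6 of the wider lists; there Gbp2 lost its call (0.0534), and Ifnar1 and Gbp7 were called.

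At these depths Il7r, Jak3 and Il2rb rest on as few as 22, 92 and 123 reads in a library, so their spread holds more counting error than that of the other members, which have at least 532.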
